A study of Mus musculus with 5 samples.

Results

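A set of 40 interferon-stimulated genes, genes that cells switch on when an interferon binds its receptor, was followed across 5 RNA libraries of B16F10, a mouse melanoma cell line. The genes were chosen as a list of symbols, and each was found by matching the Ensembl identifiers of the deposited table to GENCODE M21, an annotation of the mouse genome build GRCm38. All 40 were matched, among 54100 identifiers in the table. The rule sets no threshold on any measured value, but the list was chosen with earlier results of these data known. Its counts set beside those of all genes are therefore descriptive. The study grew B16F10 cells to enrich cancer stem cells and compared 2 ways of growing them, and it also collected cells with altered HIF-1α, the oxygen-regulated transcription factor encoded by Hif1a.

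The 5 groups were dynamic suspension culture and conventional 3D culture, both of wild-type genotype, cells labelled HIF-1α overexpression, cells labelled HIF-1α knockdown, and shControl cells, which the labels also give as wild type. No treatment was recorded for any of them. The same growth text accompanies all 5 samples: passaged cells in serum-free DMEM/F12 without added growth factors, shaken at 60 to 80 rpm for 7 to 10 days until spheroids matured. How conventional 3D culture departed from that text, and how the HIF-1α lines were made or whether they were single clones, are not stated in the labels. Each group is 1 library, pooled from 3 repeats before RNA extraction, so no comparison has a replicate check and no p-values were computed.

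In textbook outline, type I interferons bind the receptor chains Ifnar1 and Ifnar2 and type II interferon binds Ifngr1 and Ifngr2. The kinases Jak1, Jak2 and Tyk2 then phosphorylate transcription factors of the STAT family. A complex that holds Stat2 and Irf9 binds a promoter element called the ISRE, and other STAT complexes bind an element called the GAS. The genes behind these elements detect foreign nucleic acid, degrade or edit RNA, block viral entry and release, and feed back on the pathway. In melanoma cells the same genes can be active without infection, and several are also direct targets of the factors Irf1, Irf3 and Irf7.

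Levels are given as CPM, counts brought to a common library total, after scaling by TMM factors, which make the bulk of genes equal between libraries. The columns of dynamic suspension, conventional 3D culture and shControl hold estimated counts that sum to 59493240 to 61267892, and the 2 columns of the labelled HIF-1α lines hold plain counts that sum to 14803426 and 15393189. Multiples of 4 were more common among low values of the estimated columns (26.8% to 29.2%) than of the plain ones (16.1% and 17.3%). Most low values were not multiples of 4 in either kind. On the assumption of 4 estimated counts to a read pair, 12 of them were taken as the equivalent of 3 counts, the limit that a count of 0 allows. This floor came to 0.179 to 0.226 CPM in all 5 libraries. Any ratio of a labelled HIF-1α line to shControl crosses these 2 kinds of column, and the kind of column and the group cannot be told apart there. Hif1a itself was at 390.5 CPM in dynamic suspension, 542 in conventional 3D culture, 384 in the library labelled overexpression, 95.1 in the library labelled knockdown and 61.3 in shControl. The library labelled knockdown thus held more Hif1a RNA than shControl, against its label. All 7 melanocyte-lineage markers, such as Tyr, Pmel and Sox10, were present in every library. Of 12 immune-cell markers, 7 to 10 were at 0 in each library, and without the lysosomal gene Cd68, which also occurs in non-immune cells, the remaining 11 summed to 0.298 CPM in dynamic suspension, 2.14 in conventional 3D culture and 0.308 to 0.459 in the other 3 libraries.

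Expression of the interferon-stimulated genes was highest in dynamic suspension, next in conventional 3D culture and lowest in the library labelled knockdown. The 40 genes summed to 4049 CPM in dynamic suspension, 2393 in conventional 3D culture, 791 in the library labelled overexpression, 344 in the library labelled knockdown and 546 in shControl. The median gene stood at 63.1 CPM in dynamic suspension and 33.4 in conventional 3D culture, against 5.48 in the library labelled overexpression, 2.03 in the library labelled knockdown and 6.92 in shControl. At least 10 CPM was reached by 36 genes in dynamic suspension, 31 in conventional 3D culture, 16 in the library labelled overexpression, 10 in the library labelled knockdown and 12 in shControl. In bulk RNA, fewer cells expressing a gene and less RNA per cell cannot be told apart.

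**Figure D1:**
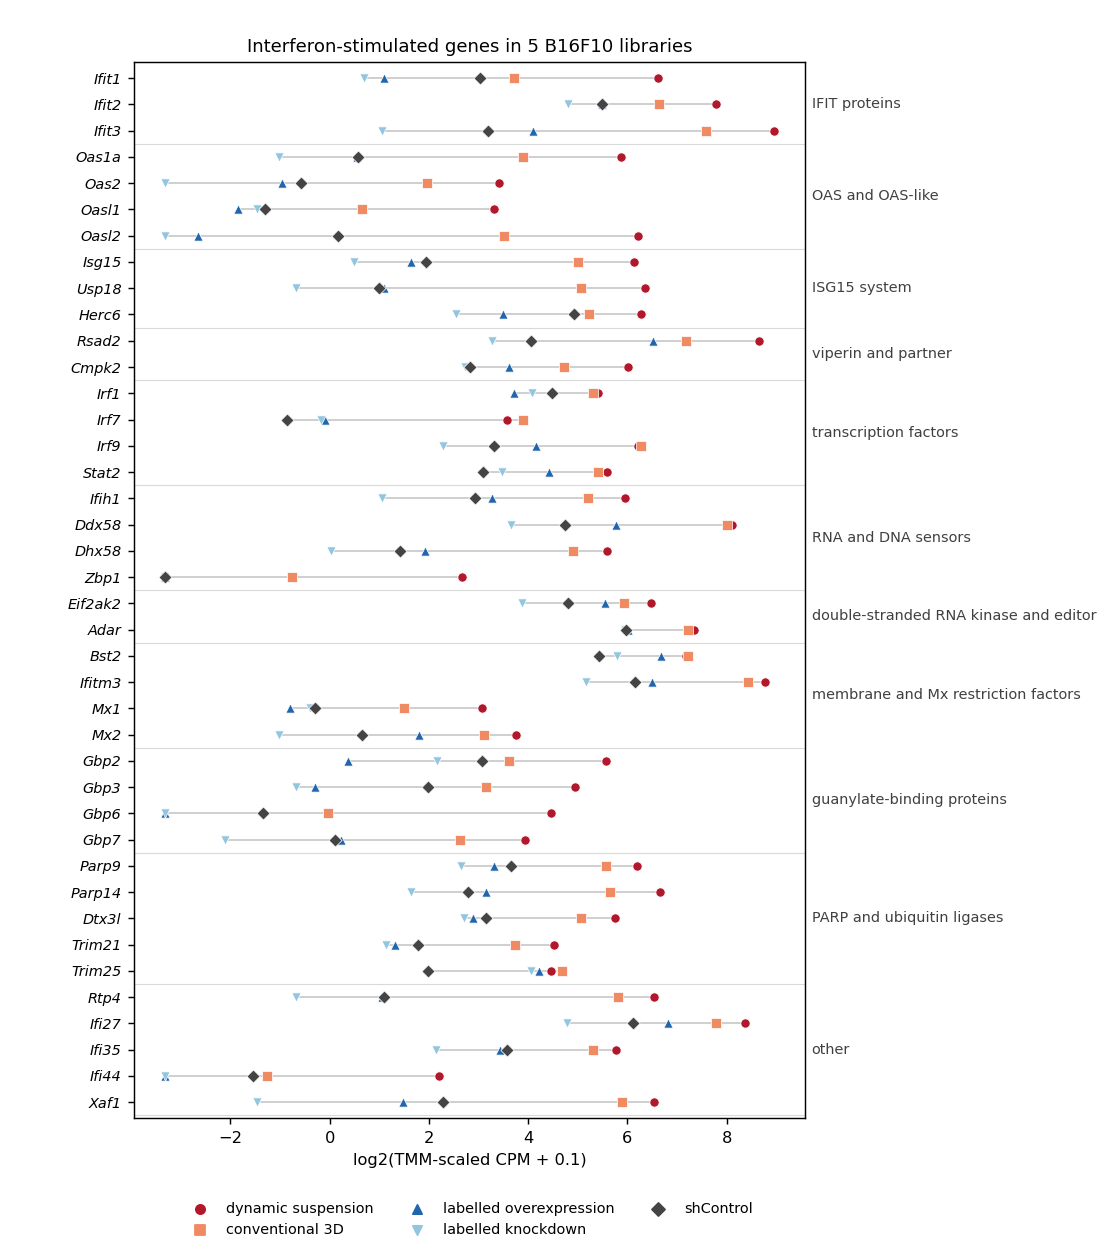
Level of each of the 40 genes in the 5 libraries, as log2 of TMM-scaled CPM plus 0.1, with genes grouped by role from top to bottom. Each marker is 1 library and the grey line joins the lowest and highest. Dynamic suspension lies furthest right for 36 genes, and a marker hidden behind another has nearly the same value.

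Dynamic suspension had the highest level of 36 of the 40 genes, a rank held by 18.6% of the 12848 genes that averaged 1 CPM or more across the libraries. For the same 36, conventional 3D culture came second and above each of the other 3 libraries, an order found in 7.6% of all those genes. The exceptions were Irf7, Irf9, Bst2 and Trim25. The library labelled knockdown was the lowest for 29 of the 40, against 24.6% of all genes. Among the other 11 were Zbp1, Gbp6 and Ifi44, which had no counts in either labelled HIF-1α library. The full order from dynamic suspension through conventional 3D culture, shControl and labelled overexpression down to labelled knockdown held for 13 of the 40 and for 1.79% of all genes. Neighbours in this order were often close: for 16 of the 40 genes the 95% counting interval of labelled overexpression over shControl included equality. Such intervals are too narrow for the estimated counts of shControl.

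The genes differed widely in how far they moved. Across the 35 genes with counts in every library, the highest level exceeded the lowest by a median of 22.0-fold, by 2.63-fold for Adar, the least variable, and by 352-fold for Xaf1, the most variable. Adar edits adenosines in double-stranded RNA, and Xaf1 binds the apoptosis inhibitor XIAP. Adar was at 162 CPM in dynamic suspension, 149.7 in conventional 3D culture, 64.0 in the library labelled overexpression, 61.6 in the library labelled knockdown and 62.7 in shControl. Xaf1 was at 92.5 CPM in dynamic suspension, 58.9 in conventional 3D culture, 2.68 in the library labelled overexpression, 0.263 in the library labelled knockdown and 4.74 in shControl. Both genes thus separated the 2 cultures from the other 3 libraries, and Xaf1 also separated the other 3 from each other. Per kilobase of exon, the scale on which genes can be set against each other, the most abundant was Ifitm3, a membrane protein that blocks virus fusion, at 640 CPM per kilobase in dynamic suspension, 506 in conventional 3D culture, 132 in the library labelled overexpression and 105 in shControl. In the library labelled knockdown Bst2, the tetherin that holds budding virions at the cell surface, led at 60.8 CPM per kilobase. The top 3 genes made up 57.3% of the per-kilobase sum in dynamic suspension, 63.7% in conventional 3D culture and 70.5% to 74.95% in the other 3 libraries.

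The sequences before the gene starts show what the genes share apart from expression. Promoter windows from RefSeq (GRCm38.p6, 250 bases before to 50 after the start) existed for 29 of the 40 genes. The ISRE was searched as GAAA, any 2 bases and GAAA again, which on the other strand reads TTTC, any 2 bases and TTTC, and the GAS as TTCNNNGAA, which reads the same on both strands; matches to either may overlap. An ISRE match lay in the windows of 15 of the 29 genes (51.7%), against 3.99% of 27025 genes. A GAS match lay in those of 9 of the 29, against 9.55% of genes. Stretches are shown for genes whose values carry the comparisons that follow, on the strand of the gene and 5′ to 3′, with the matched motifs in capitals and the flanking bases in lower case.
Isg15: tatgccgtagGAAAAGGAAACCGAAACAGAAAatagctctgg
Ifit1: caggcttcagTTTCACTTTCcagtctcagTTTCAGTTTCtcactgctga
Ifit3: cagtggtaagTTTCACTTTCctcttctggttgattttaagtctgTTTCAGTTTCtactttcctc
Rsad2: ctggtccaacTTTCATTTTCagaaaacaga
Bst2: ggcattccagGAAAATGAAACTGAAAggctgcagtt
Stat2: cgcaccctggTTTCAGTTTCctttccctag
Gbp3: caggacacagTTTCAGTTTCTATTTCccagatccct
Gbp7: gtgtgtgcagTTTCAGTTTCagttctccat
Irf1: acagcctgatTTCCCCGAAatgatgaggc

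These lie at chr4:156200865-156200906 (Isg15, minus strand), chr19:34640775-34640823 (Ifit1, plus), chr19:34583363-34583426 (Ifit3, plus), chr12:26456553-26456582 (Rsad2, minus), chr8:71537577-71537612 (Bst2, minus), chr10:128270266-128270295 (Stat2, plus), chr3:142559989-142560024 (Gbp3, plus), chr3:142530273-142530302 (Gbp7, plus) and chr11:53769914-53769942 (Irf1, plus). Isg15 held 3 overlapping ISRE matches, the first beginning 78 bases before the start site, and Ifit1 and Ifit3 held 2 separate ones each. Irf1 held a GAS match 90 bases before its start and no ISRE match. Irf7, Irf9, Oasl1, Oasl2 and Cmpk2 had a window with no ISRE match in these letters. In dynamic suspension over conventional 3D culture, 8 of the 15 genes with an ISRE match were higher beyond 2-fold (median log2 ratio 1.13), and so were 6 of the 14 without one (median 0.67). Across all genes 6.44% were called higher there, by the rule given below. Shares of all genes with or without a match are not given here. A match is a string of letters and does not show that a factor binds there.

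Dynamic suspension was compared with conventional 3D culture, the contrast between the 2 ways of growing the cells, in which both columns hold estimated counts. The OAS, IFIT, guanylate-binding and ISG15 genes were higher in dynamic suspension, and the transcription factors of the pathway were level. Genes were called beyond 2-fold, up or down, where the pair of libraries averaged 1 CPM or more (the minimum level) and the 95% interval from counting error excluded equality. Of the 40 genes, 20 were called higher and 0 lower; across the 12875 genes that passed the minimum, 6.44% were called higher and 7.64% lower. All 40 passed the minimum. Their median log2 ratio was 0.90, against -0.02 for all genes, and the ratio was above 0 for 36.

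**Figure D2:**
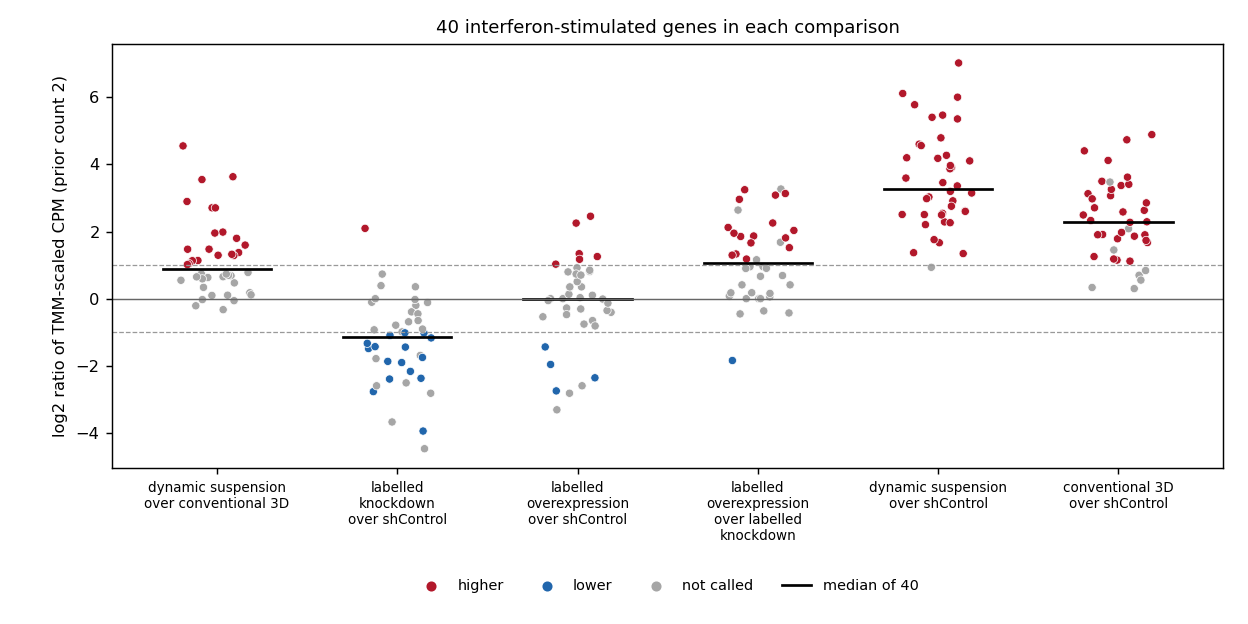
Log2 ratio of TMM-scaled CPM of the 40 genes in 6 comparisons, 1 point per gene, coloured by call, with the median of the 40 as a black bar and 2-fold as dashed lines. Points lie above 0 for all 40 genes in both cultures over shControl, and most lie below 0 for labelled knockdown over shControl.

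All 3 IFIT genes, whose products bind foreign RNA and hinder its translation, were called higher. They lie in 1 cluster on chromosome 19 (Ifit2 34550694 to 34576419, Ifit3 34583531 to 34588731, Ifit1 34640871 to 34650009, GRCm38). Ifit1, which recognises RNA caps that lack methylation, had 97.5 CPM in dynamic suspension, 13.0 in conventional 3D culture, 2.02 in the library labelled overexpression, 1.51 in the library labelled knockdown and 8.02 in shControl. Its log2 ratio between the cultures was 2.90 (95% interval 2.79 to 3.02). Ifit3, a partner that stabilises Ifit1 in complexes, had 498 CPM in dynamic suspension, 192 in conventional 3D culture, 17.1 in the library labelled overexpression, 1.97 in the library labelled knockdown and 9.01 in shControl. Both genes were highest in dynamic suspension, but conventional 3D culture stood far above shControl for Ifit3 and much nearer to it for Ifit1. Ifit2 had 219.9 CPM in dynamic suspension, 99.9 in conventional 3D culture and 27.9 to 45.0 in the other 3 libraries. Its log2 ratio between the cultures, 1.14, was the smallest of the 3.

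All 4 OAS and OAS-like genes were called higher. Oas1a and Oas2 encode synthetases whose product activates the endonuclease RNase L, and Oasl1 and Oasl2 are relatives of them. Oasl1 had 9.85 CPM in dynamic suspension, 1.47 in conventional 3D culture, 0.179 in the library labelled overexpression, 0.263 in the library labelled knockdown and 0.308 in shControl. Its log2 ratio was 2.71 (2.41 to 3.11), and Oasl2, next to it on chromosome 5 with 11005 bases between, also reached 2.71 (2.59 to 2.84). Oasl2 had 74.3 CPM in dynamic suspension, 11.3 in conventional 3D culture, 0.0595 in the library labelled overexpression, 0 in the library labelled knockdown and 1.02 in shControl. The 2 labelled HIF-1α libraries held 1 count or none of it. Oas1a stood at 58.5 CPM in dynamic suspension and 14.8 in conventional 3D culture (log2 ratio 1.99), and Oas2 at 10.6 in dynamic suspension and 3.78 in conventional 3D culture (1.47). In the other 3 libraries both were at or below 1.38 CPM.

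The ISG15 system consists here of Isg15, a ubiquitin-like protein attached to newly made proteins, Herc6, its main ligase in mouse, and Usp18, which removes it and also damps the type I receptor. All 3 were called higher in dynamic suspension. Isg15 had 70.1 CPM in dynamic suspension, 32.0 in conventional 3D culture, 3.04 in the library labelled overexpression, 1.31 in the library labelled knockdown and 3.77 in shControl, a log2 ratio between the cultures of 1.13. Usp18 had 81.9 CPM in dynamic suspension, 33.6 in conventional 3D culture, 2.02 in the library labelled overexpression, 0.525 in the library labelled knockdown and 1.88 in shControl, a ratio of 1.29. Both thus had a wide gap between the 2 cultures and the other 3 libraries. Herc6 behaved otherwise: it had 76.9 CPM in dynamic suspension, 37.3 in conventional 3D culture, 11.1 in the library labelled overexpression, 5.71 in the library labelled knockdown and 30.2 in shControl. Its level in shControl was close to that in conventional 3D culture, and its ratio between the cultures, 1.04, was just past 2-fold.

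Rsad2, which encodes viperin, an enzyme that makes a chain-terminating nucleotide, and Cmpk2, a nucleotide kinase gene, lie head to head on chromosome 12 with 12751 bases between. Rsad2 had 403 CPM in dynamic suspension, 145 in conventional 3D culture, 90.8 in the library labelled overexpression, 9.52 in the library labelled knockdown and 16.5 in shControl, and its log2 ratio between the cultures was 1.48. Cmpk2 had 64.6 CPM in dynamic suspension, 26.3 in conventional 3D culture, 12.2 in the library labelled overexpression, 6.50 in the library labelled knockdown and 7.00 in shControl, with a ratio of 1.29. The 2 neighbours were called together between the cultures and in each culture over shControl, and neither was called in labelled knockdown over shControl. Labelled overexpression had Rsad2 called without Cmpk2. There Cmpk2 was at 0.80 over shControl and 0.90 over labelled knockdown.

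The largest ratios between the cultures belonged to genes that were almost silent outside dynamic suspension. Gbp6, 1 of 4 guanylate-binding protein genes, GTPases that attack the membranes around intracellular pathogens, had 21.8 CPM in dynamic suspension, 0.883 in conventional 3D culture, 0 in both labelled HIF-1α libraries and 0.292 in shControl. Its log2 ratio was 4.55 (4.21 to 5.08), and it shares most of its exon sequence with Gm43302 and Gbp10, so reads may have been split among them. Ifi44, an interferon-induced gene of GTPase-like structure, had 4.52 CPM in dynamic suspension, 0.319 in conventional 3D culture, 0 in both labelled HIF-1α libraries and 0.244 in shControl, a ratio of 3.63 (3.12 to 4.62). Zbp1, a sensor of left-handed nucleic acid that can trigger necroptosis, had 6.24 CPM in dynamic suspension and 0.489 in conventional 3D culture, a ratio of 3.55 (3.10 to 4.31), and had no counts in the other 3 libraries. These 3 genes were present above 1 CPM in dynamic suspension alone.

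The other 3 guanylate-binding protein genes, a cluster on chromosome 3, were also called higher. Gbp2 had 47.4 CPM in dynamic suspension, 12.2 in conventional 3D culture, 1.19 in the library labelled overexpression, 4.40 in the library labelled knockdown and 8.28 in shControl. Gbp3 had 30.9 CPM in dynamic suspension, 8.83 in conventional 3D culture, 0.714 in the library labelled overexpression, 0.525 in the library labelled knockdown and 3.86 in shControl. Their log2 ratios between the cultures were 1.96 and 1.80, and that of Gbp7, at 15.3 CPM in dynamic suspension and 6.09 in conventional 3D culture, was 1.32. Mx1, an antiviral GTPase gene that many laboratory strains carry in a defective form, at 8.34 CPM in dynamic suspension and 2.72 in conventional 3D culture (1.60), and Parp14, an ADP-ribosyltransferase gene, at 101 CPM in dynamic suspension and 49.9 in conventional 3D culture (1.02), completed the 20 genes.

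The 4 transcription factor genes were expressed at similar levels in the 2 cultures, and none was called. Irf9 had 74.1 CPM in dynamic suspension, 77.2 in conventional 3D culture, 17.6 in the library labelled overexpression, 4.79 in the library labelled knockdown and 9.77 in shControl. Stat2, its partner at the ISRE, had 48.0 CPM in dynamic suspension, 42.5 in conventional 3D culture, 21.4 in the library labelled overexpression, 11.0 in the library labelled knockdown and 8.41 in shControl. Irf7, the factor that amplifies type I interferon production, had 11.8 CPM in dynamic suspension, 14.9 in conventional 3D culture, 0.834 in the library labelled overexpression, 0.788 in the library labelled knockdown and 0.455 in shControl. Irf1, a factor best known from the response to type II interferon, had 42.3 CPM in dynamic suspension, 39.5 in conventional 3D culture, 13.0 in the library labelled overexpression, 16.8 in the library labelled knockdown and 22.1 in shControl. Between the cultures the log2 ratios were -0.06 for Irf9 (-0.12 to 0.00), 0.18 for Stat2 (0.10 to 0.26), -0.33 for Irf7 (-0.48 to -0.18) and 0.10 for Irf1 (0.01 to 0.18). All 4 were thus within 1.5-fold, while both cultures lay above the other 3 libraries for each of the 4.

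The remaining genes of this comparison that were not called lay between -0.21 and 0.78 on the log2 scale. They included the RNA sensor genes Ddx58, which encodes RIG-I (276 CPM in dynamic suspension and 257 in conventional 3D culture), Ifih1 (61.7 in dynamic suspension and 36.9 in conventional 3D culture) and Dhx58 (47.7 in dynamic suspension and 29.7 in conventional 3D culture). Adar and Eif2ak2, the double-stranded RNA editor and the kinase that stops translation, were at log2 ratios of 0.12 and 0.55. Parp9 and Dtx3l, whose products act as a complex and whose genes overlap head to head on chromosome 16 with starts 681 bases apart, were at 0.63 and 0.70. By role, 3 of 3 IFIT, 4 of 4 OAS, 3 of 3 ISG15-system and 4 of 4 guanylate-binding genes were called higher, against 0 of 4 transcription factor genes and 1 of 4 sensor genes.

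**Figure D3:**
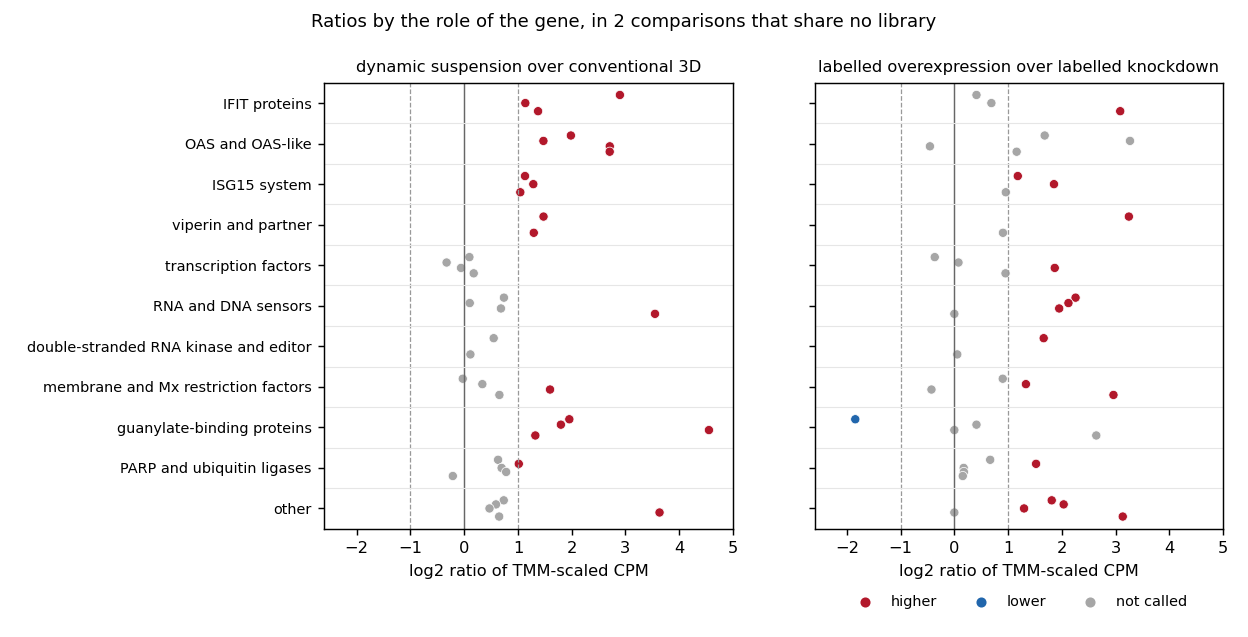
Log2 ratios of the 40 genes by role, for dynamic suspension over conventional 3D culture (left) and labelled overexpression over labelled knockdown (right), which share no library. Each point is 1 gene, coloured by call, with 2-fold as dashed lines. The transcription factors lie near 0 on the left, and the OAS and IFIT genes lie further right on the left panel than most other roles.

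Both cultures were then set beside shControl, in columns of the same kind. These 2 comparisons share the shControl library. The labels give the same growth text for these groups and do not state how shControl differed from them in culture or genetic handling. Such differences cannot be told apart here. In dynamic suspension 39 of the 40 genes were called higher and 0 lower, against 13.8% of all genes called higher and 14.8% lower, with a median log2 ratio of 3.28 (all genes -0.03). In conventional 3D culture 32 were called higher and 0 lower, against 14.0% of all genes called higher and 14.9% lower, with a median of 2.28 (all genes -0.01). In conventional 3D culture 36 of the 40 passed the minimum level. Irf1 was called in neither comparison, at 0.93 (0.84 to 1.03) in dynamic suspension and 0.84 (0.74 to 0.94) in conventional 3D culture.

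Zbp1 was at least 32.0-fold higher in dynamic suspension than in shControl, which had no counts, and such a bound gives it no rank. Among genes with counts in both libraries Oasl2 had the largest log2 ratio in dynamic suspension, 6.12 (5.82 to 6.56), then Gbp6 at 6.01 (5.56 to 6.98) and Ifit3 at 5.78 (5.67 to 5.91). Rtp4, a receptor-chaperone gene with antiviral activity, had 92.8 CPM in dynamic suspension, 55.7 in conventional 3D culture, 1.96 in the library labelled overexpression, 0.525 in the library labelled knockdown and 2.05 in shControl. It stood at 5.47 (5.25 to 5.77) in dynamic suspension over shControl. In conventional 3D culture Irf7 led at 4.89 (4.49 to 5.63), followed by Rtp4 at 4.74 (4.51 to 5.04), Ifit3 at 4.41 (4.29 to 4.54), Usp18 at 4.12 (3.88 to 4.44) and Xaf1 at 3.62 (3.46 to 3.81). Irf7 was at 4.56 (4.16 to 5.30) in dynamic suspension, so it differed from shControl by a similar amount in both cultures. Irf9 was at 2.92 (2.80 to 3.05) in dynamic suspension and 2.98 (2.86 to 3.11) in conventional 3D culture, and Stat2 at 2.51 (2.38 to 2.65) in dynamic suspension and 2.33 (2.20 to 2.48) in conventional 3D culture.

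The 8 genes not called in conventional 3D culture over shControl were Ifit1, Oasl1, Herc6, Irf1, Zbp1, Gbp2, Gbp6 and Ifi44. All of these but Irf1 were called in dynamic suspension over shControl. Oasl1, Zbp1, Gbp6 and Ifi44 missed the minimum level in conventional 3D culture. Herc6, at 0.30, Ifi44, at 0.33, and Gbp2, at 0.55, were the lowest of the 40 on the log2 scale. The 12 immune-cell markers summed to 13.5 CPM in dynamic suspension, 14.5 in conventional 3D culture and 3.86 in shControl. Most of this was Cd68, at 13.2 CPM in dynamic suspension, 12.4 in conventional 3D culture and 3.56 in shControl. The 8 fibroblast markers summed to 37.6 CPM in dynamic suspension, 129 in conventional 3D culture and 38.4 in shControl, and the 6 endothelial markers to 1.85 CPM in dynamic suspension, 10.7 in conventional 3D culture and 4.14 in shControl. All of the endothelial sum in conventional 3D culture was Vwf, and the other 5 endothelial markers were at 0 there. Pecam1 was at 0.761 CPM in dynamic suspension and 0.958 in shControl. The part of such cells in the result was not tested.

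The library labelled knockdown had lower interferon-stimulated genes than shControl. Of the 40, 16 were called lower and 1 higher, against 15.7% of all genes called lower and 8.05% higher. The median log2 ratio over the 40 was -1.13, against 0.01 for all genes, and 29 passed the minimum level. Counting genes without counts in that library at the bound that 3 counts allow gave a median of -1.02 over 39 genes. Fewer were called lower where fewer could be called, 3 of the 11 that averaged 10 CPM or more and 10 of the 29 of own sequence. Shares of all genes under those restrictions are not given here. All 3 genes of the ISG15 system, all 3 RNA sensor genes and 4 of the 5 genes placed in no other role were called lower. Cell-type markers also differed. The 12 immune-cell markers summed to 1.25 CPM in the library labelled knockdown and 3.86 in shControl, with Cd68 at 0.788 in the library labelled knockdown and 3.56 in shControl, and 9 of the 12 were at 0 in the library labelled knockdown and 8 in shControl. The 7 melanocyte-lineage markers summed to 14699.5 CPM in the library labelled knockdown and 24361 in shControl. Among them Sox10 alone ran the other way, at 695 in the library labelled knockdown and 487 in shControl. The part of these differences in the result was not tested.

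**Figure D4:**
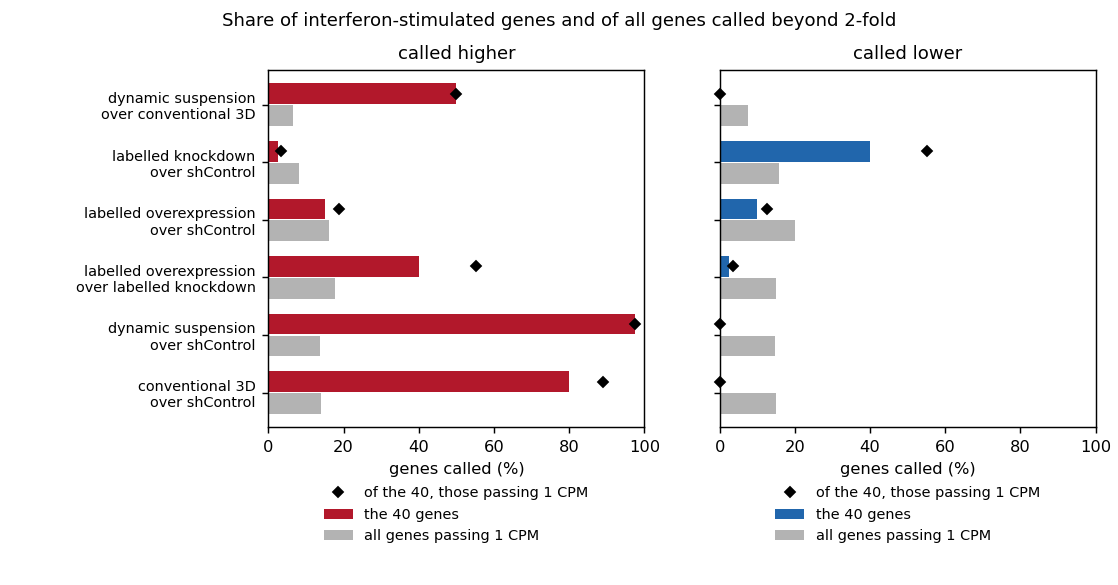
Share of genes called higher (left) and lower (right) beyond 2-fold in 6 comparisons, as percent of the 40 interferon-stimulated genes (coloured), of those among the 40 that passed a mean of 1 CPM (diamonds, 29 to 40 genes) and of all genes that passed it (grey). Coloured bars exceed grey ones for both cultures over shControl, dynamic suspension over conventional 3D culture and labelled overexpression over labelled knockdown on the left, and for labelled knockdown over shControl on the right.

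Xaf1 had the lowest log2 ratio among the called genes, -3.95 (-6.06 to -2.80). It was followed by Gbp3 at -2.77 (-4.11 to -1.88), Herc6 at -2.40 (-2.73 to -2.09), Ifit1 at -2.37 (-3.08 to -1.81) and Ifit3 at -2.17 (-2.78 to -1.66). In the library labelled knockdown Xaf1 rested on 4 counts and Gbp3 on 8, and their intervals were the widest of the 5. Irf9 was called at -1.02 (-1.40 to -0.68). The other 3 transcription factor genes were not called, with Irf1 at -0.39 (-0.59 to -0.20), Stat2 at 0.39 (0.13 to 0.64) and Irf7 at 0.73 (-0.32 to 1.81). Among the OAS genes none passed the minimum, and Oasl2 was at least 5.20-fold lower in the library labelled knockdown, which had no counts of it. Trim25, the ubiquitin ligase that acts on RIG-I, was the single gene called higher.

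Trim25 departed from the other genes in most respects. It had 21.9 CPM in dynamic suspension, 25.4 in conventional 3D culture, 18.5 in the library labelled overexpression, 16.6 in the library labelled knockdown and 3.85 in shControl. It was low in shControl alone, and its log2 ratio to shControl was 2.10 (1.85 to 2.37) in the library labelled knockdown and 2.25 (2.02 to 2.52) in the library labelled overexpression. Across the 5 libraries the correlation of its log2 level with the mean of the other genes was 0.41, the lowest of the 40, while 33 genes were at 0.9 or above. With 5 libraries this is a description of the pattern.

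The library labelled overexpression showed no common direction against shControl. Of the 40 genes, 6 were called higher and 4 lower, and 32 passed the minimum. Called higher were 18.75% of those 32 and 16.1% of all genes that passed, and called lower were 12.5% of the 32 and 20.1% of all genes. The median log2 ratio was 0.00 over the 40 (all genes -0.02). Among the 16 that averaged 10 CPM or more 5 were higher and 1 lower, and a threshold of 1.5-fold gave 11 higher. Shares of all genes at that minimum and that threshold are not given here, so these counts have no background beside them. Higher were Rsad2 at 2.46 (2.35 to 2.58), Trim25, Stat2 at 1.34 (1.15 to 1.54), Bst2 at 1.26 (1.17 to 1.34), Mx2 at 1.17 (0.70 to 1.69) and Ddx58 at 1.03 (0.91 to 1.15). Lower were Gbp2 at -2.75 (-3.52 to -2.16), Gbp3 at -2.36 (-3.41 to -1.60), Ifit1 at -1.96 (-2.53 to -1.48) and Herc6 at -1.44 (-1.67 to -1.22). Bst2 had 146 CPM in dynamic suspension, 148 in conventional 3D culture, 103 in the library labelled overexpression, 54.9 in the library labelled knockdown and 42.9 in shControl. Mx2, a GTPase gene next to Mx1 that the annotation classes as a polymorphic pseudogene, had 13.5 CPM in dynamic suspension, 8.55 in conventional 3D culture, 3.39 in the library labelled overexpression, 0.394 in the library labelled knockdown and 1.48 in shControl. Irf9 was at 0.85 (0.64 to 1.05), Irf7 at 0.81 (-0.16 to 1.85) and Irf1 at -0.76 (-0.97 to -0.55), none of them called.

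The 2 comparisons with shControl share that library, and their values for the same genes stood as follows. Gbp3, Ifit1 and Herc6 were lower in both. Rsad2 was at 2.46 in the library labelled overexpression and -0.79 in the library labelled knockdown, and Ifit3 at 0.92 in the library labelled overexpression and -2.17 in the library labelled knockdown. Labelled overexpression set against labelled knockdown, which leaves shControl out and uses plain counts on both sides, had 16 genes called higher and 1 lower. Across all genes 17.7% were called higher and 14.9% lower. The median of the 40 was 1.06, or 1.13 over 36 genes with bounds for genes without counts, against -0.03 for all genes, and 29 passed the minimum. Among the 12 that averaged 10 CPM or more 6 were called higher and 0 lower, and shares of all genes at that minimum are not given here. Summed immune-cell markers stood at 8.75 CPM in the library labelled overexpression and 1.25 in the library labelled knockdown. Most of this was Cd68, at 8.40 in the library labelled overexpression and 0.788 in the library labelled knockdown. Without Cd68 the sums were 0.357 in the library labelled overexpression and 0.459 in the library labelled knockdown. Summed melanocyte-lineage markers were at 27591 in the library labelled overexpression and 14699.5 in the library labelled knockdown. Sox10 ran the other way, at 471 in the library labelled overexpression and 695 in the library labelled knockdown. Mlana did too, at 375 and 559 in that order. The part of these markers in the result was not tested.

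The highest were Rsad2 at 3.25 (3.01 to 3.51), Xaf1 at 3.13 (1.90 to 5.29), Ifit3 at 3.09 (2.57 to 3.71), Mx2 at 2.96 (1.90 to 4.61) and Ifih1 at 2.26 (1.71 to 2.90). Ifih1, a sensor of long double-stranded RNA, was at 9.59 CPM in the library labelled overexpression and 1.97 in the library labelled knockdown. Its fellow sensors Ddx58, at 54.8 in the library labelled overexpression and 12.5 in the library labelled knockdown, and Dhx58, at 3.69 in the library labelled overexpression and 0.919 in the library labelled knockdown, were called too, at 2.12 and 1.95. Ifi27, which encodes a mitochondrial protein, stood at 113 CPM in the library labelled overexpression and 27.4 in the library labelled knockdown (2.03), and Eif2ak2 at 46.4 in the library labelled overexpression and 14.6 in the library labelled knockdown (1.66). Gbp2 was the single gene called lower, at -1.84 (-2.68 to -1.15). Irf9 was called at 1.87 (1.51 to 2.27), while Stat2 at 0.95 (0.69 to 1.23), Irf7 at 0.08 (-1.14 to 1.32) and Irf1 at -0.36 (-0.63 to -0.10) were not.

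Many genes that were called between the cultures could not be called in this comparison, because they missed the minimum. None of the 4 OAS genes and 1 of the 4 guanylate-binding genes passed it, and 3 of the 4 OAS log2 ratios were above 0, with a median of 1.42 from few counts. All 3 RNA sensor genes were called higher in labelled overexpression over labelled knockdown, whereas none of them was called in dynamic suspension over conventional 3D culture. The difference between these ratios was not tested. Of the 40 genes 5, which were Ifit3, Isg15, Usp18, Rsad2 and Parp14, were called higher in both, a combination met by 1.37% of all genes. The 2 comparisons share no library. Across the 40 genes their log2 ratios had a Pearson r of -0.25 and a Spearman rho of -0.17, against 0.02 and 0.07 across all 12848 genes, where genes are not independent replicates. Both ratios were above 0 for 29 of the 40, and for 3196 of the 12848 genes.

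Other components of the pathway were read from a list of 60 genes, also chosen with earlier results of these data known. Of 20 interferon ligand genes, 18 had no counts in any library. Ifnb1 had 0.166 CPM, from 10 estimated counts, in dynamic suspension and none elsewhere, which is under the assumed floor. Ifnz, a ligand gene that shares sequence with other genes, had 0.894 CPM in dynamic suspension, 0.169 in conventional 3D culture, 0 in both labelled HIF-1α libraries and 0.211 in shControl. Ligand RNA was thus under 1 CPM in all 5 libraries at this depth. Only Ifnz in dynamic suspension stood well above the assumed floor, which was 0.199 CPM there. The receptor genes were all expressed. Ifnar1 ranged from 75.4 to 117 CPM and Ifngr2 from 79.1 to 98.4 CPM over the 5 libraries. Of the 6 receptor genes, Il10rb, a shared chain that also serves interleukin-10, was called higher in dynamic suspension over conventional 3D culture (1.23), and Ifnlr1, the type III receptor chain, and Il10rb were called lower in labelled knockdown over shControl (-2.25 and -1.33).

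Among the sensors and induction factors that averaged 1 CPM or more, Tlr3 and Irf5 varied most widely over the libraries. Part of the exon sequence of Irf5 and Il10rb is shared with other annotated genes. Irf5, a factor of inflammatory gene induction, had 6.49 CPM in dynamic suspension, 8.48 in conventional 3D culture, 7.44 in the library labelled overexpression, 1.58 in the library labelled knockdown and 1.02 in shControl. Tlr3, the endosomal sensor of double-stranded RNA, had 49.7 CPM in dynamic suspension, 33.0 in conventional 3D culture, 14.3 in the library labelled overexpression, 4.40 in the library labelled knockdown and 8.39 in shControl. Cgas, the cytosolic DNA sensor gene, ran the other way, with 2.40 CPM in dynamic suspension, 4.66 in conventional 3D culture, 5.36 in the library labelled overexpression, 11.8 in the library labelled knockdown and 8.91 in shControl.

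**Figure D5:**
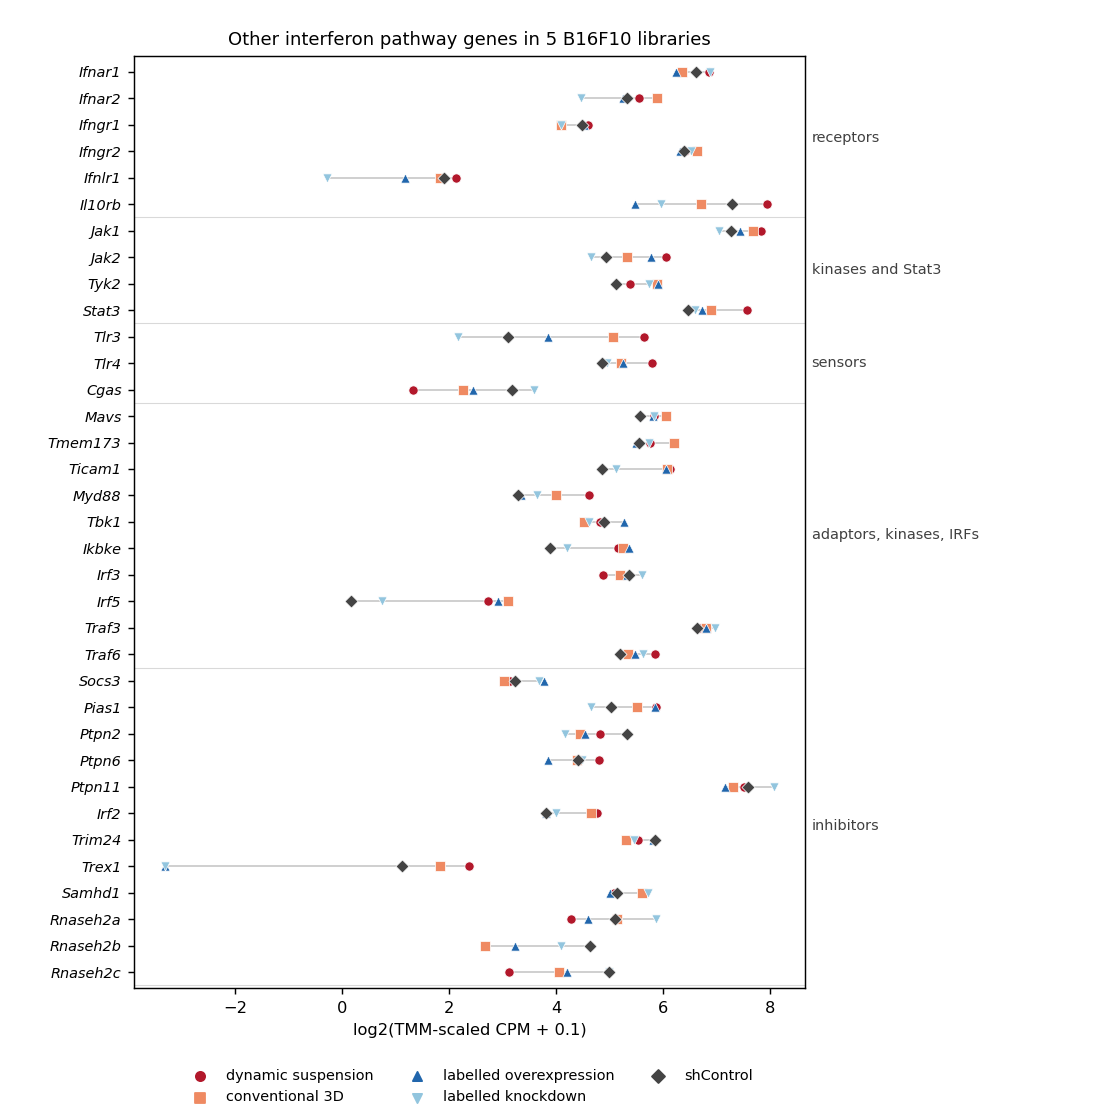
Levels of the 35 listed pathway genes that averaged 1 CPM or more, as log2 of TMM-scaled CPM plus 0.1 in each of the 5 libraries, grouped by role. Among genes with counts in every library, Tlr3, Irf5, Ifnlr1, Il10rb and Cgas have the longest lines, from 4.92-fold to 11.3-fold between lowest and highest, and Trex1 is at 0 in 2 libraries.

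Apart from the ligands, 40 pathway genes were listed, of which 34 to 36 passed the minimum in each comparison. In dynamic suspension over conventional 3D culture 2 were called higher and 0 lower, against 6.44% and 7.64% of all genes. In labelled knockdown over shControl 0 were higher and 4 lower, against 8.05% and 15.7% of all genes. In labelled overexpression over shControl 3 were higher and 3 lower, against 16.1% and 20.1%, and in labelled overexpression over labelled knockdown 6 were higher and 2 lower, against 17.7% and 14.9%, so the shares of pathway genes in these 4 comparisons were near or below those of all genes. Over shControl, 9 were higher and 3 lower in dynamic suspension, against 13.8% and 14.8% of all genes, and 4 were higher and 1 lower in conventional 3D culture, against 14.0% and 14.9%. Their median log2 ratio between the cultures was 0.18. The 2 genes higher there were Il10rb and Socs1, a feedback inhibitor of the receptor kinases, at 1.67 CPM in dynamic suspension, 0.639 in conventional 3D culture and 0.471 to 0.853 in the other 3 libraries. Trex1, the exonuclease that clears cytosolic DNA, had 5.05 CPM in dynamic suspension, 3.42 in conventional 3D culture, 0 in both labelled HIF-1α libraries and 2.08 in shControl. It shares sequence with other annotated genes, and its zeros fall in the 2 plain-count columns, where the kind of column and the group cannot be told apart.

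A list of 70 further interferon-stimulated genes, also chosen with earlier results of these data known, was read in the same way. Between the cultures 54 passed the minimum, and 24 were called higher and 1 lower, against 6.44% and 7.64% of all genes. The median over the 70 was 0.76. By the fitted ratio, which depends on the prior count for genes without counts in a library, the 5 highest were Gbp9, Tgtp1, Tgtp2, Gbp10 and Gbp4, GTPase genes of the guanylate-binding and immunity-related families that all share sequence with close copies. They lay between 2.30 and 6.85 CPM in dynamic suspension and between 0 and 0.188 CPM in conventional 3D culture. Phf11d, at 2.62 CPM in dynamic suspension and 5.68 in conventional 3D culture, was the gene called lower. The chemokine gene Ccl5 had 107 CPM in dynamic suspension, 19.2 in conventional 3D culture, 2.38 in the library labelled overexpression, 0.328 in the library labelled knockdown and 6.98 in shControl. Cxcl10, another chemokine gene, had 47.5 CPM in dynamic suspension, 15.6 in conventional 3D culture, 1.43 in the library labelled overexpression, 11.4 in the library labelled knockdown and 35.8 in shControl. These 2 chemokine genes were both highest in dynamic suspension, and their order in the other 4 libraries was different.

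In labelled knockdown over shControl 34 of the 70 passed, and 3 were called higher and 8 lower, against 8.05% and 15.7% of all genes. Higher were Trim14 at 1.92, Rnf213 at 1.52 and Helz2 at 1.11 on the log2 scale. The lowest were Ccl5 at -4.22, Irgm2, an immunity-related GTPase gene, at -2.64, Ifit3b at -2.10, Samd9l at -2.06 and Cxcl10 at -1.65. In labelled overexpression over shControl 38 passed, and 11 were higher and 5 lower, against 16.1% and 20.1% of all genes. Trim14 at 2.20, Cd274 at 2.08, Znfx1 at 2.07, Isg20 at 1.90 and Helz2 at 1.66 led upward, and Cxcl10 at -4.60, Slfn9 at -3.44, Ifi47 at -2.56, Ccl5 at -1.53 and Ifitm2 at -1.06 were lower. Cd274, which encodes PD-L1, the ligand that restrains T cells, had 77.8 CPM in dynamic suspension, 24.3 in conventional 3D culture, 34.7 in the library labelled overexpression, 4.66 in the library labelled knockdown and 8.17 in shControl. Against the library labelled knockdown, 15 of the 35 that passed were higher in the library labelled overexpression and 3 lower, against 17.7% and 14.9% of all genes. Oas1c at 3.31 (1.95 to 5.93, with 3 counts in the library labelled knockdown), Cd274 at 2.88, Ccl5 at 2.69, Irgm2 at 2.53 and Tap1 at 2.33 led upward, and Cxcl10 at -2.95, Ifi47 at -2.28 and Slfn9 at -1.85 were lower. Tap1, the peptide transporter gene of antigen presentation, was at 13.7 CPM in the library labelled overexpression and 2.69 in the library labelled knockdown. Over shControl, 42 of the 53 that passed were higher and 1 lower in dynamic suspension, against 13.8% and 14.8% of all genes, and 35 of 46 were higher and 3 lower in conventional 3D culture, against 14.0% and 14.9%. By the fitted ratio, in dynamic suspension Ifi203, Trim30a, Ifit3b, Gbp4 and Sp100 stood highest, and in conventional 3D culture Ifi203, Sp100, Phf11d, Ifit3b and Ifi27l2a. Ifi203 had 3.67 CPM in dynamic suspension, 2.39 in conventional 3D culture and no counts in shControl. Slfn9 was lower in both, at 6.26 CPM in dynamic suspension, 5.73 in conventional 3D culture and 52.7 in shControl, and Ifi47 and Cxcl10 were also lower in conventional 3D culture. Of the genes named here, Trim14, Irgm2, Ifit3b, Cd274, Slfn9, Ifitm2, Oas1c, Ifi203 and Phf11d share sequence with other genes.

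Among 9488 genes averaging 10 CPM or more, the 10 whose log2 levels were most like the mean of the 40 over the 5 libraries were Ifit3b, Dnhd1, Rbpj, Nub1, Stam2, Igtp, Tkfc, Zc3h12a, Irgm1 and Tmem268, with Pearson r of 0.99 or above (n = 5). Ifit3b, Igtp and Irgm1 are in the list of further interferon-stimulated genes. Ifit3b had 164 CPM in dynamic suspension, 52.4 in conventional 3D culture, 2.92 in the library labelled overexpression, 0.722 in the library labelled knockdown and 3.25 in shControl, and 65.45% of the 31-base words of the Ifit3 exons belong to other genes, chiefly Ifit3b. Others had a much smaller range. Rbpj, the DNA-binding factor of Notch signalling, had 85.9 CPM in dynamic suspension, 73.7 in conventional 3D culture, 52.0 in the library labelled overexpression, 43.9 in the library labelled knockdown and 50.6 in shControl. The measure reads the shape of the 5 values and not their spread.

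Sequence shared with other annotated genes touched 11 of the 40, which were Ifit1, Ifit3, Oas1a, Isg15, Herc6, Adar, Ifitm3, Gbp6, Gbp7, Rtp4 and Ifi35. For these, at least 10% of the exon bases or of the 31-base words of the exons belonged to another gene as well, and their counts may have been split or merged. Among the 29 genes of own sequence, 13 were called higher and 0 lower in dynamic suspension over conventional 3D culture (median 0.74), and 10 were called lower and 1 higher in labelled knockdown over shControl. In labelled overexpression over labelled knockdown 11 of the 29 were higher and 1 lower. Over shControl 28 of the 29 were higher in dynamic suspension and 24 in conventional 3D culture. Shares called among all genes of own sequence are not given here.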

How the data were processed

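RNA was made into poly(A)-selected, strand-specific libraries and sequenced as paired reads on a NovaSeq instrument, per the labels' protocols. The submitters' processing notes name cutadapt, HISAT2 and StringTie as tools and GRCm38.p6 and mm10 as builds. The counting program with its strand setting and annotation is not given in the sources used here. The deposited table holds plain counts for the libraries labelled knockdown and overexpression, and the deposited values of the other 3 are estimated counts by their pattern: 26.8% to 29.2% of low values are multiples of 4, against 16.1% and 17.3%. Plain counts had been planned for all 5. Pseudogenes took 3.44% to 4.81% of the estimated columns and 0.714% and 0.918% of the plain ones. Every column was assigned to a sample, with 0 left over. All 40 genes and the other lists were chosen with earlier results of these data known; Cgas was entered under that symbol after the annotation was read.

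CPM were computed with TMM factors (edgeR 4.0.16 in R 4.3.3; 0.869 to 1.09), and log2 ratios with a prior count of 2. Intervals of levels are exact Poisson and those of ratios exact conditional binomial (Clopper-Pearson, 95%); both cover counting error only and are too narrow for estimated counts, but 0 calls were lost with those values divided by 4. With 1 library per group no test was run. The computation was checked on simulated data. Named were, in each comparison, the 5 called genes with the largest ratio in each direction, with Irf1, Irf7, Irf9 and Stat2 throughout, and likewise among the further genes; others named were chosen after their values were seen. Alternatives were other scalings, minimum levels, thresholds, prior counts and gene subsets. A gene of the planned pathway list is not reported here. Promoter sequences are from RefSeq.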

Additional observations from a re-analysis of the deposited data

How the results depend on the processing

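No paired analysis was possible because each group has 1 library, and for the same reason no replicate could be left out. Of 960 single-gene values under an alternative, 0 called ones reversed, while 91 of the 960 were marked as moved and 869 as the same. With a minimum mean of 10 CPM, which tests fewer genes, labelled overexpression over labelled knockdown had 6 called higher and 0 lower, labelled knockdown over shControl 3 lower and labelled overexpression over shControl 1 lower, and the medians over measured genes were 0.74 between the cultures, 2.95 for dynamic suspension over shControl and 0.72 for labelled overexpression over shControl. With the 29 genes of own sequence, 13 were called higher between the cultures (median 0.74), 10 lower in labelled knockdown over shControl and 2 lower in labelled overexpression over shControl. A threshold of 1.5-fold gave 11 higher in labelled overexpression over shControl. Shares of all genes are not given here for the 10 CPM minimum, the genes of own sequence or the 1.5-fold threshold. Scaling by column totals moved the median of all genes by 0.19 for dynamic suspension over conventional 3D culture and by -0.25 for conventional 3D culture over shControl. It gave medians of 1.09 and 2.06 for the measured interferon-stimulated genes there, and calls over all genes of 1117 higher and 703 lower, against 829 and 984 with TMM, and of 1275 higher and 2740 lower, against 1815 and 1920. TMM factors from protein-coding genes of own sequence, which moved all genes by -0.12 in labelled knockdown over shControl and -0.13 in labelled overexpression over shControl, turned the median of the measured genes in the second of these to -0.013, against 0.12 with TMM over all genes; the cause was not tested. Under median-of-ratios scaling, a prior count of 0.5, no minimum and values divided by 4, no count moved by over 1.5 times and no median changed sign. With no replicates, the depth behind genes of few counts sets the width of their intervals and nothing here measures variation between cultures.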
